A study of Mus musculus with 12 samples.

Results

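The genes described here code for the coat of lipid droplets and for the enzymes that build and break down triglyceride, and they were picked by symbol from a table of RNA sequencing counts: Plin2, Plin3, Plin4, Plin5, Pnpla2, Lipe, Mgll, Dgat1, Dgat2 and Gpam. All 10 were found among the 24421 entries of the table, and all 10 were among the 13937 genes with enough counts to be tested. The tissue was the tibialis anterior, a fast hindlimb muscle, of male mice aged 4 months. The WT group was the strain C57Bl/6 (6 libraries), with no agent or allele given in the labels. The other group was mdx/mTR (6 libraries), a strain that joins the mdx mutation of Dmd, which codes for dystrophin, a protein that anchors the fibre membrane, to a change in mTR, the telomerase RNA gene. The labels give neither the zygosity nor the breeding generation of these alleles, and no group carries only one of them, so the parts of mdx, mTR and strain background cannot be told apart. Libraries are numbered within a strain, and the labels do not say that each came from a different mouse, so p-values measure the spread between these libraries.

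Muscle fibres store fatty acids as triglyceride inside lipid droplets, whose surface is covered by perilipins. Triglyceride is built on a glycerol backbone, in a route that Gpam can open and that Dgat1 or Dgat2 closes. It is taken apart in turn by Pnpla2 (adipose triglyceride lipase), Lipe (hormone-sensitive lipase) and Mgll (monoglyceride lipase), and in muscle the released fatty acids feed mitochondrial oxidation.

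Library totals ran from 36903560 to 40981012 counts in WT and from 35136327 to 60330410 counts in mdx/mTR. Replicates 1, 2, 4 and 6 of mdx/mTR exceeded every WT library, so depth differed in part with strain. Levels are given as CPM, counts relative to library size scaled by TMM (trimmed mean of M-values). Changes are log2 fold changes, positive where mdx/mTR was higher, from edgeR's quasi-likelihood test, adjusted over all tested genes. Dmd, which checks the labels, had a mean of 237 ± 6.90 CPM over the 6 WT libraries and 46.8 ± 7.20 CPM over the 6 mdx/mTR libraries (SD), without overlap. Terc, the table's symbol for the telomerase RNA, had 2 counts in all and checks nothing. The summed level of 5 muscle fibre markers was 111817 to 124113 CPM in WT libraries and 91685 to 121058 CPM in those of mdx/mTR, so muscle RNA was present in every library. The TMM factors of the groups did not overlap: scaling by library totals alone moved the median change over all tested genes by 0.16 on the log2 scale, and members that this scaling changes are named below.

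Of the 10 members, 6 fell (Dgat2, Plin5, Plin3, Gpam, Mgll and Lipe), 1 rose (Dgat1) and 3 were not called (Plin2, Plin4 and Pnpla2). Over all tested genes, 23.4% were lower, 25.0% were higher and 48.3% were called in either direction, so being called at all was common in this comparison. The median log2 fold change of the members was -0.32, beside 0.01 over all tested genes. A fall of at least 2-fold was found for Dgat2 and Plin5, 2 of 10 members, beside 1.94% of all tested genes. On TMM-scaled levels the groups did not overlap for Dgat2, Plin5 and Gpam (lower) and for Dgat1 (higher), 4 of 10 members, beside 25.2% of all tested genes. The members were chosen with earlier results of these data known. These shares and medians therefore describe the chosen genes and test nothing. In the authors' deposited table the same 7 members have an adjusted p below 0.05, 6 lower and 1 higher, beside 50.1% of its genes with an adjusted p.

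**Figure D1:**
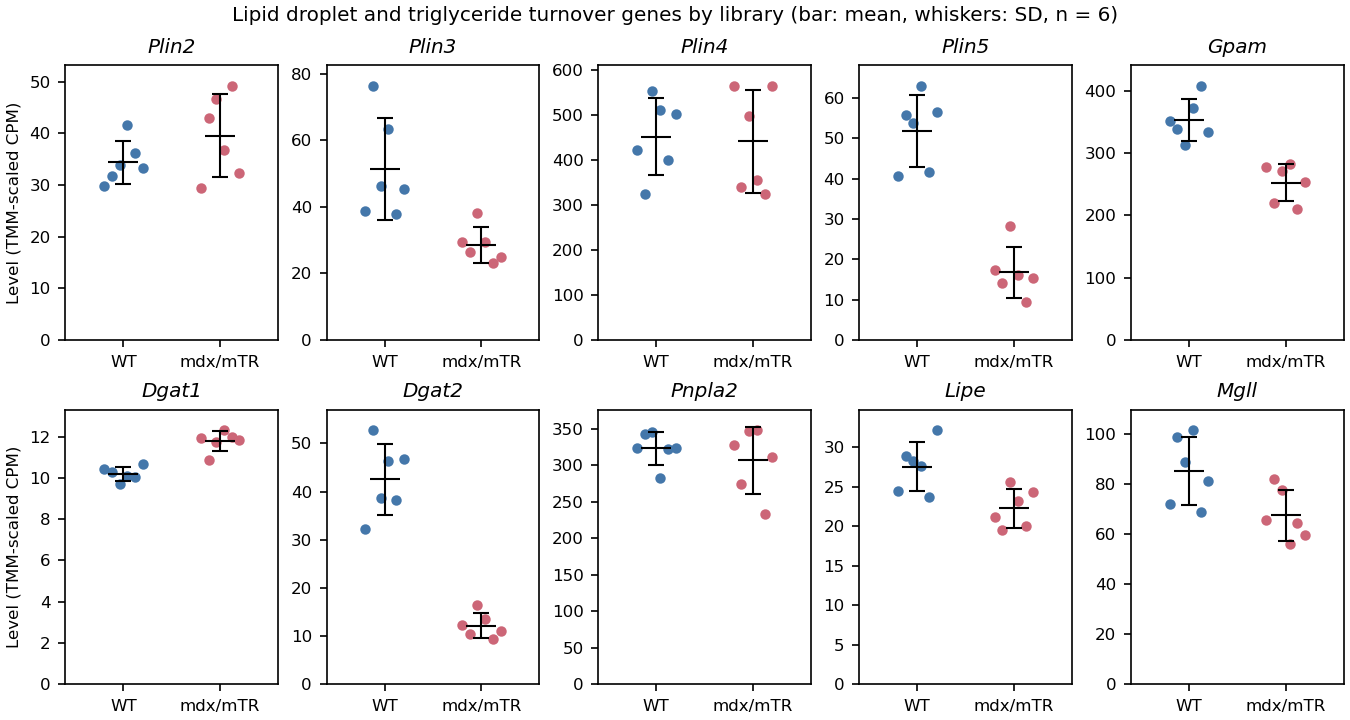
Level of each gene in every library as TMM-scaled CPM (vertical axis, from 0), with WT and mdx/mTR side by side, points for libraries, a bar for the mean and whiskers for the SD (n = 6 each). Dgat2, Plin5 and Gpam lie lower in all 6 mdx/mTR libraries than in any WT library, Dgat1 lies higher in all 6, and the other genes overlap.

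Of the 4 perilipins, the droplet coat, Plin5 and Plin3 fell, and Plin2 and Plin4 were not called. Plin5, the perilipin typical of tissues that oxidise fat, which links droplets to mitochondria, was at 40.6, 54.8 and 63.1 CPM in WT (lowest, median and highest) and at 9.37, 15.7 and 28.4 CPM in mdx/mTR. All 6 mdx/mTR libraries lay below all WT libraries, and the mdx/mTR mean was 32.3% of the WT mean. Its log2 fold change was -1.64 ± 0.20 (SE, edgeR adjusted p 3.1e-05), rank 83 of 13937 counted from the most negative. The highest mdx/mTR library was replicate 3 and the lowest replicate 5, and the fitted change was -1.84 without replicate 3 and -1.52 without replicate 5.

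Plin3, a perilipin found in the cytosol and on small, newly formed droplets, was at 37.9, 45.9 and 76.5 CPM in WT and at 23.0, 28.0 and 38.1 CPM in mdx/mTR. Only mdx/mTR replicate 3 reached the WT range, and the other 5 libraries lay below it. The log2 fold change was -0.85 ± 0.17 (SE, edgeR adjusted p 0.0012). WT replicate 2 held the highest level, and without it the change was -0.70 (edgeR adjusted p 0.0017).

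Plin2, the widely expressed perilipin that coats droplets in most cells, was at 29.8, 33.5 and 41.7 CPM in WT and at 29.4, 39.9 and 49.3 CPM in mdx/mTR. Of the mdx/mTR libraries, 3 lay above all WT libraries and 1 below them. It was not called (log2 fold change 0.20, 95% interval -0.06 to 0.46, edgeR adjusted p 0.196), but with library totals alone it was 0.37 (adjusted p 0.0489 in edgeR), a scaling under which 51.3% of all tested genes were called. Of the 50-base stretches of its longest coding transcript, 4.89% also occur in another gene, Gm12551, so its level is uncertain to that extent. Plin4, a perilipin of muscle and fat with a long repeated stretch, was at 325, 461 and 553 CPM in WT and at 324, 427 and 565 CPM in mdx/mTR, so the groups covered nearly the same range. Its log2 fold change was -0.04 (95% interval -0.39 to 0.32, edgeR adjusted p 0.874), and it turned positive under 2 other scalings, upper quartile and library totals alone. In the longest coding transcript of Plin4, 17.4% of 50-base stretches occur more than once, and how reads from such stretches were counted is not given in the sources used here.

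Plin3, Plin4 and Plin5 all lie on the minus strand of chromosome 17 (GRCm38, the build called mm10, from GENCODE M21). Plin4 (chr17:56100591-56109803) and Plin5 (chr17:56111601-56117596) are separated by 1797 bases, and Plin3 (chr17:56277476-56292873) lies 159879 bases from Plin5. Of the close pair Plin4 and Plin5, Plin5 fell and Plin4 was not called, and the difference between their changes was not tested. The exons of Plin3 and Plin5 overlap no other gene in that annotation, and those of Plin4 share 17 bases with Hdgfl2 on the opposite strand.

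Within libraries, the ratio of Plin5 to Plin2 counts needs no scaling between libraries. It was 1.15, 1.55 and 1.76 in WT (lowest, median and highest) and 0.190, 0.456 and 0.608 in mdx/mTR, where Plin2 had more counts than Plin5 in every library and Plin5 had more in every WT library. The log2 ratio fell by 1.87 (two-sided exact permutation test, p 0.00216, adjusted p 0.00325 over 3 ratios, n = 6 each). That p is the smallest the design allows. The merged exon lengths of Plin5 and Plin2 are 2087 and 3512 bases, so their counts alone do not rank their levels. The effect of length on this ratio was not tested.

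**Figure D2:**
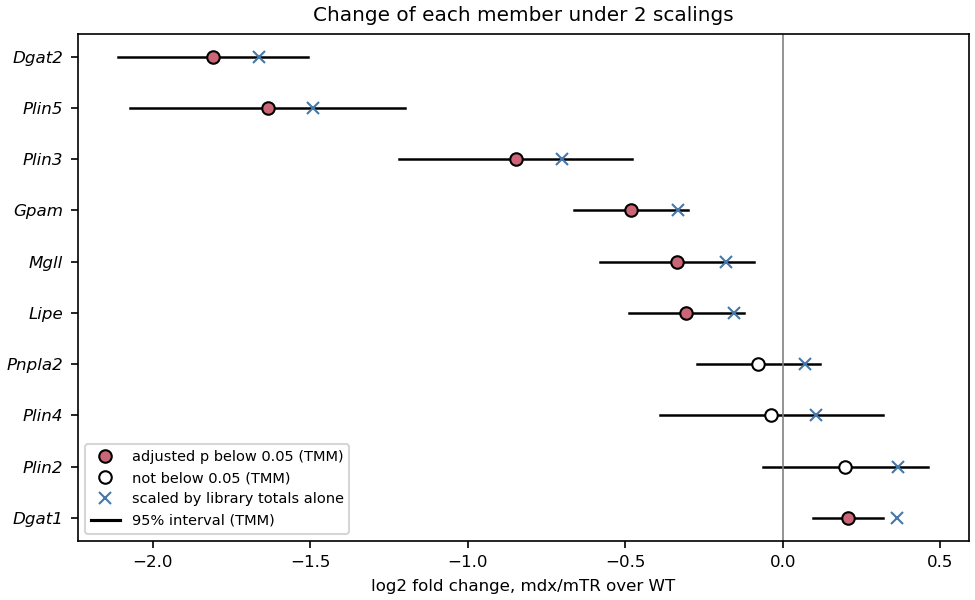
Log2 fold change of each gene (horizontal axis, positive where mdx/mTR was higher), with its 95% interval and filled points for an adjusted p below 0.05; crosses give the value when libraries are scaled by their totals alone. Dgat2 (-1.81) and Plin5 (-1.64) lie farthest from 0, and the crosses sit to the right of the points for all 10 genes.

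Among the synthesis enzymes, Dgat2 and Dgat1, which catalyse the same final step but are unrelated in sequence, moved in opposite directions. Dgat2, which lies on chromosome 7 (chr7:99153658-99182719, minus strand), was at 32.2, 42.5 and 52.8 CPM in WT and at 9.44, 11.7 and 16.5 CPM in mdx/mTR. No mdx/mTR library came near the WT range, and the mdx/mTR mean was 28.6% of the WT mean. The log2 fold change was -1.81 ± 0.14 (SE, edgeR adjusted p 7.4e-07), rank 64 of 13937 from the most negative.

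Dgat1, on chromosome 15 (chr15:76502015-76511953, minus strand), was at 9.69, 10.2 and 10.7 CPM in WT and at 10.9, 11.9 and 12.3 CPM in mdx/mTR. All 6 mdx/mTR libraries were above all WT libraries by a small margin. Its log2 fold change was 0.21 ± 0.05 (SE, edgeR adjusted p 0.0049), and its coefficient of variation, 3.32% in WT and 4.10% in mdx/mTR, was the lowest of the 10 members in both groups. The change is small beside that of Dgat2 but larger than the spread between libraries.

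The ratio of Dgat2 to Dgat1 counts was 3.09, 4.19 and 5.13 in WT and 0.788, 0.990 and 1.40 in mdx/mTR. Dgat2 had at least 3.09 times the counts of Dgat1 in WT libraries, and the counts were about equal in mdx/mTR. The log2 ratio fell by 2.02 (two-sided exact permutation test, p 0.00216, adjusted p 0.00325, n = 6 each). The merged exon lengths of Dgat2 and Dgat1, 3083 and 3056 bases, are close, but their longest coding transcripts have 2262 and 1888 bases. The effect of length on the ratio was not tested.

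Gpam, a mitochondrial enzyme that adds the first fatty acid to glycerol 3-phosphate, was at 313, 345 and 409 CPM in WT and at 211, 262 and 282 CPM in mdx/mTR. All 6 mdx/mTR libraries lay below the WT range, and the mdx/mTR mean was 71.6% of the WT mean. The log2 fold change was -0.48 ± 0.08 (SE, edgeR adjusted p 4.3e-04), and -0.33 (edgeR adjusted p 0.0015) when libraries were scaled by totals alone. With that scaling the groups overlapped. Relative to its total, mdx/mTR replicate 4 (13790 of 46700042 counts) lay above WT replicate 3 (11291 of 38790485 counts).

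**Figure D3:**
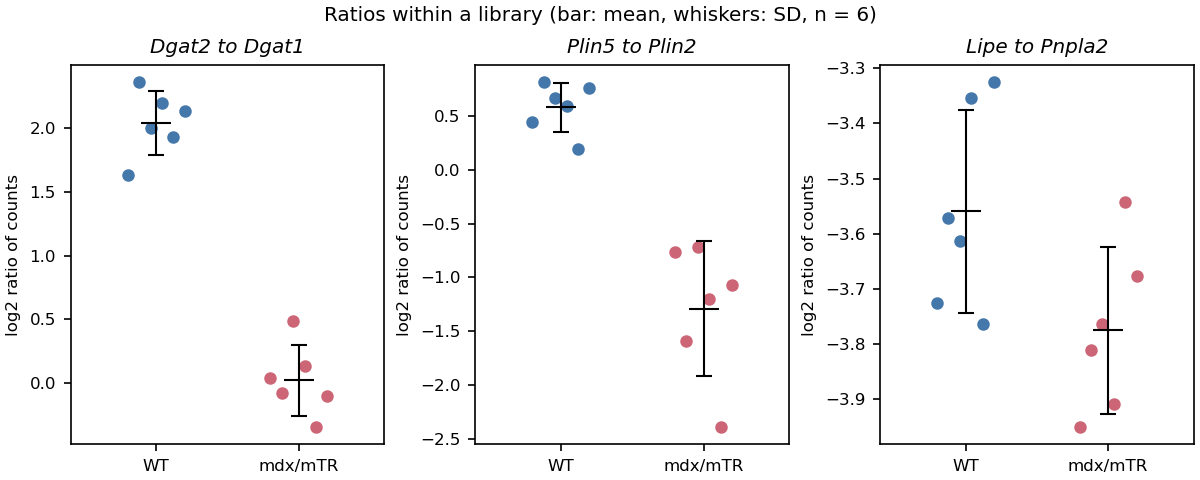
Log2 ratio of the counts of 2 genes within each library (vertical axis, a different range in each panel) for WT and mdx/mTR, with points for libraries, a bar for the mean and whiskers for the SD (n = 6 each). The groups lie apart for Dgat2 to Dgat1 and for Plin5 to Plin2, and overlap for Lipe to Pnpla2.

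Of the 3 lipases, Lipe and Mgll fell and Pnpla2 was not called. Pnpla2, which removes the first fatty acid from triglyceride, was at 283, 323 and 345 CPM in WT and at 233, 319 and 348 CPM in mdx/mTR. The groups overlapped, with 2 mdx/mTR libraries below and 2 above the WT range. Its log2 fold change was -0.08 (95% interval -0.27 to 0.12, edgeR adjusted p 0.514), and 0.07 with library totals alone.

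Lipe, which acts on the diglyceride that Pnpla2 leaves, was at 23.7, 27.9 and 32.2 CPM in WT and at 19.5, 22.2 and 25.5 CPM in mdx/mTR. All 6 mdx/mTR libraries were below the WT mean and 4 were below the WT range. The log2 fold change was -0.31 ± 0.09 (SE, edgeR adjusted p 0.0094), but -0.15 and not called (edgeR adjusted p 0.152) when libraries were scaled by totals alone. Of the merged exon bases of Lipe, 15.6% lie opposite the antisense gene 4732471J01Rik. That gene had means of 0.763 CPM (WT) and 0.631 CPM (mdx/mTR), and since strand handling is not given in the sources used here, reads from the pair cannot be told apart there.

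Mgll, which frees the last fatty acid from monoglyceride, was at 68.9, 85.1 and 101.9 CPM in WT and at 56.0, 65.1 and 82.3 CPM in mdx/mTR. Again all 6 mdx/mTR libraries were below the WT mean and 4 were below the WT range. The log2 fold change was -0.34 ± 0.11 (SE, edgeR adjusted p 0.0253). This was the least stable call among the members under the alternatives run: it was lost when libraries were scaled by totals alone (-0.18, edgeR adjusted p 0.243), and without WT replicate 2 (-0.29, adjusted p 0.0549), WT replicate 4 (-0.28, adjusted p 0.0605), mdx/mTR replicate 4 (-0.29, adjusted p 0.0550) or mdx/mTR replicate 6 (-0.30, adjusted p 0.0534).

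The ratio of Lipe to Pnpla2 counts was 0.0736, 0.0829 and 0.0997 in WT and 0.0647, 0.0724 and 0.0858 in mdx/mTR, with overlap. Its log2 value differed by -0.22 (two-sided exact permutation test, p 0.0563, adjusted p 0.0563, n = 6 each), which does not pass. Without WT replicate 1 the difference was -0.25 (adjusted p 0.0433), without WT replicate 5 it was -0.26 (adjusted p 0.0325) and without mdx/mTR replicate 5 it was -0.26 (adjusted p 0.0238), so leaving out any of these libraries brings it past the threshold.

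Levels can be ranked between genes only per length, here as CPM per kilobase of merged exons, which counts every annotated exon and so understates genes with many rarely used exons. In WT the order was Pnpla2 (107 ± 7.46 CPM per kilobase, SD, n = 6), Plin4 (78.2 ± 14.7), Gpam (53.0 ± 5.02), Plin5 (24.9 ± 4.28), Mgll (16.8 ± 2.69), Dgat2 (13.8 ± 2.41), Plin3 (13.6 ± 4.06), Plin2 (9.80 ± 1.18), Lipe (4.67 ± 0.527) and Dgat1 (3.34 ± 0.111). Neighbours in that order overlapped in range, except that Gpam lay wholly above Plin5, Plin2 above Lipe and Lipe above Dgat1. In mdx/mTR, Pnpla2 (101.5 ± 15.1), Plin4 (76.3 ± 19.7) and Gpam (37.9 ± 4.56) were still the highest. Plin2, the eighth in WT, was the fifth in mdx/mTR at 11.3 ± 2.28 CPM per kilobase, above Plin5 at 8.04 ± 3.02. Dgat2 (3.95 ± 0.826), Dgat1 (3.85 ± 0.158) and Lipe (3.78 ± 0.416) came last and overlapped in range.

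Promoter sequences show members that fell beside a member that was not called. RefSeq windows of GRCm38.p6, from 250 bases before to 50 bases after a start, matched 8 of the 10 members with 12 windows; Dgat1 and Dgat2 were not matched. Searched on both strands were AGGTCA, the core motif of nuclear receptors such as the PPARs, and the E-box CACGTG, and no matches of the 2 overlapped in the windows shown. The windows below are the Plin5 and Gpam windows with a core motif upstream of the start, both of genes that fell, and the Plin2 window, the core motif of a gene that was not called; capitals mark AGGTCA or its reverse complement, and CACGTG.
Plin5, chr17:56117499-56117798, minus strand: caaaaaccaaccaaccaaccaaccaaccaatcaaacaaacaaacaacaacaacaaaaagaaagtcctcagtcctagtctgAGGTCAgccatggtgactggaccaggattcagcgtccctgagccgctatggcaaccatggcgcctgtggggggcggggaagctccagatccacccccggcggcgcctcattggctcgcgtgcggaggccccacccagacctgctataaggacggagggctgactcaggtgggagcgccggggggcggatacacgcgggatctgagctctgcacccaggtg
Gpam, chr19:55099428-55099727, minus strand: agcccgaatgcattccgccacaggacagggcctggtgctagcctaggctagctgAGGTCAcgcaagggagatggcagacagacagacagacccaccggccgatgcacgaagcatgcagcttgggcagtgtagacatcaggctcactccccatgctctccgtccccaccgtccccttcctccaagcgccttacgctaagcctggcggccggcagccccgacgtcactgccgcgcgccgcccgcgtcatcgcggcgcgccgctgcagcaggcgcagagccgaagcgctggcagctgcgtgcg
Plin2, chr4:86670010-86670309, minus strand: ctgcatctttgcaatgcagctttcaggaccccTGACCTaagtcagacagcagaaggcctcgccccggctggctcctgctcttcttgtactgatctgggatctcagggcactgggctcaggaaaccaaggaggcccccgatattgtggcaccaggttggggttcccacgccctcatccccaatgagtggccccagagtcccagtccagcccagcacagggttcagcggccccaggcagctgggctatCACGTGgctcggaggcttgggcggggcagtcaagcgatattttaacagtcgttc
The core motif begins 170 bases before the start in this Plin5 window, 196 bases before it in this Gpam window and 218 bases before it in Plin2, which also holds CACGTG 4 bases before the start. A further Plin5 window, at another start, holds it 13 bases after it. The other Gpam window, chr19:55127189-55127488, covers the annotated start of the gene and holds no AGGTCA. Nor does any window of Plin3, Lipe and Mgll, which also fell, or of Plin4 and Pnpla2, which were not called. In all, AGGTCA was in 4 of 12 member windows (3 of 8 members), beside 16.3% of 32851 windows of the same length. CACGTG was in 3 of 12 (Plin2, Mgll and Lipe), beside 7.15% of all windows. The direct repeat of the core motif with any 1 base between the copies, the form that PPARs bind, was also searched on both strands and was in 0 of 12 member windows, beside 0.0396% of all windows. These matches are letters in a window, and no binding was measured.

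Among themselves, several members deviated together within groups. Over the 12 libraries, deviations of log2 CPM from the group means had a Pearson r of 0.86 for Plin5 with Dgat2, 0.85 for Plin3 with Dgat2, 0.74 for Lipe with Dgat2 and 0.74 for Plin3 with Plin5. The lowest r were those of Plin2 with Pnpla2 (-0.55) and of Mgll with Dgat1 (-0.54). The values describe 12 libraries that share a scaling. In mdx/mTR, replicate 3 was the highest and replicate 5 the lowest library for Plin3, Plin5 and Dgat2. Replicate 5 was also the lowest mdx/mTR library for Plin4, Pnpla2, Gpam and Dmd, but not for Lipe, Mgll or Dgat1. It was the highest for Plin2. Of the 12 libraries, it had the lowest summed muscle fibre markers (91685 CPM) and the highest TMM factor (1.16).

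Among 9509 genes averaging at least 5 CPM, those whose within-group deviations were most like Dgat2 were Cpt2 (r = 0.95), Hemk1 (0.91) and Ephx2 (0.90), by Pearson r over the 12 libraries. Cpt2, an enzyme of fatty acid entry into mitochondrial oxidation, had a log2 fold change of -0.67 (edgeR adjusted p 4.7e-05). For Plin5 they were Hadha (0.93), Cd36 (0.92) and Ifngr2 (0.92). Hadha, a subunit of the mitochondrial trifunctional protein of fatty acid oxidation, had a log2 fold change of -0.40 (edgeR adjusted p 0.0017), and Cd36, a fatty acid transporter, one of -0.81 (edgeR adjusted p 1.2e-05). Nearest to Gpam were Metrn (0.91), Hnrnpll (0.89) and Pecr (0.89). Of these 9 genes 6 fell, beside 23.4% of all tested genes, and the share that fell among the 9509 ranked genes is not given here. The remaining 3 were not called: Hemk1 (log2 fold change 0.04, edgeR adjusted p 0.802), Hnrnpll (-0.04, adjusted p 0.486) and Pecr (-0.02, adjusted p 0.88).

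The muscle was sequenced whole, so fewer cells of a type and less RNA per cell cannot be told apart. Adipocytes, fat-storing cells that also express lipases and triglyceride synthesis enzymes, were examined with 7 markers, of which 5 were tested and 0 were called by edgeR, also 0 at an unadjusted p below 0.05. Limma-voom called 0 as well, and DESeq2, which gave an adjusted p to all 7, called 1, Lep, which was at 0.112 to 0.711 CPM in WT and 0.0426 to 0.227 CPM in mdx/mTR and was too low for the edgeR filter. The summed adipocyte marker level was 22.3 to 34.9 CPM over WT libraries and 19.8 to 61.8 CPM over mdx/mTR libraries, with mdx/mTR replicate 3 highest and replicate 5 lowest. The defining markers were low but not at 0: Adipoq was at 2.79 to 3.70 CPM (WT) and 1.90 to 5.63 CPM (mdx/mTR), and Plin1, the adipocyte perilipin, at 1.28 to 1.81 CPM and 0.750 to 2.57 CPM. Without mdx/mTR replicate 3 the changes were -1.91 for Dgat2, -1.84 for Plin5 and -0.95 for Plin3, all still called. In that same fit the adipocyte marker Cidec was called lower (-0.63, edgeR adjusted p 0.0318). With all libraries it was not called (-0.23, edgeR adjusted p 0.587). The part of adipocytes in the falls of the members was not tested.

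Macrophage markers moved with the groups. All 6 of 6 rose, and their summed level was 70.0 to 122 CPM over WT libraries and 210 to 604 CPM over mdx/mTR libraries. In mdx/mTR, Plin2 was lowest in replicate 1 (29.4 CPM, with 210 CPM of macrophage markers) and replicate 6 (32.3 CPM, with 216 CPM), and highest in replicate 5 (49.3 CPM, with 604 CPM). Replicates 4, 3 and 2 lay between, at 36.8, 46.7 and 42.95 CPM of Plin2 with 315, 371 and 399.6 CPM of macrophage markers. In WT, replicate 1 was the lowest in both (29.8 CPM of Plin2, with 70.0 CPM of markers), Plin2 was highest in replicate 4 (41.7 CPM, with 109 CPM), and the library with most macrophage markers, replicate 6 (122 CPM), held 33.2 CPM. The part of macrophages in the Plin2 level was not tested. Markers of fibro-adipogenic progenitors, the stromal cells that can form fat, also rose (4 of 4), from 377 to 497 CPM in WT to 629 to 765 CPM in mdx/mTR. Muscle fibre markers were lower in 1 of 5 genes, with a median log2 fold change of -0.20, and endothelial markers in 2 of 4, with a median of -0.34. Over all tested genes, 23.4% were lower and 25.0% were higher, so 1 of 5 is near the background. The part of muscle fibres and endothelial cells in the falls of the members was not tested.

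**Figure D4:**
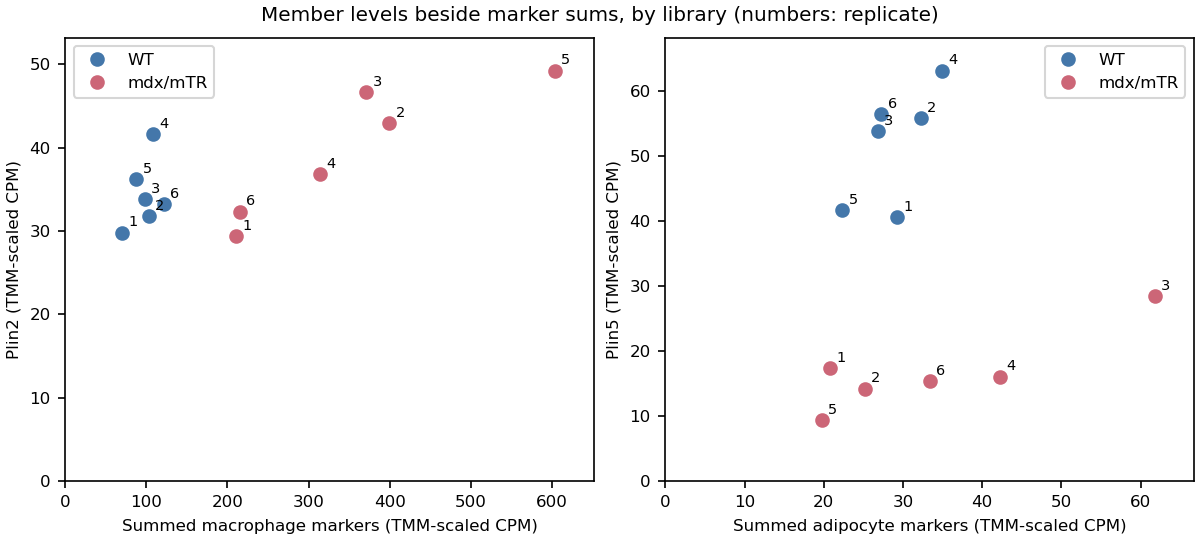
Left, Plin2 level against the summed level of 6 macrophage markers, and right, Plin5 level against the summed level of 7 adipocyte markers, both as TMM-scaled CPM from 0, with a point for each library numbered by replicate. The mdx/mTR libraries all lie right of the WT libraries on the left, and all lie below them on the right.

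The surrounding pathway was described with lists written with earlier results of these data known, each by its counts and median beside the background of 23.4% lower and 25.0% higher. Lipolysis regulation and other lipases had 8 tested genes, of which 4 fell and 2 rose, with a median log2 fold change of -0.14. Abhd5, the coactivator of Pnpla2, was at 58.5, 60.2 and 61.2 CPM in WT and at 39.7, 46.4 and 51.9 CPM in mdx/mTR, without overlap (-0.38 ± 0.05 SE, edgeR adjusted p 1.0e-04). G0s2, an inhibitor of Pnpla2, was at 5.76, 7.12 and 13.1 CPM in WT and at 5.52, 8.31 and 14.6 CPM in mdx/mTR, with overlap (0.21, 95% interval -0.30 to 0.71, edgeR adjusted p 0.496). So Abhd5 fell, while Pnpla2 and G0s2 were not called; Hilpda, another inhibitor, is given with the coat genes below. Prkaca, a catalytic subunit of the kinase that activates lipolysis, named after its value was seen, was not called (0.09, edgeR adjusted p 0.0783), but was called higher with the filter of at least 1 CPM in at least 6 libraries (adjusted p 0.0414), with library totals alone (0.0017) and with scaling by the upper quartile (0.0149).

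The largest change in that list was the fall of Ces1d, a carboxylesterase that hydrolyses triglyceride in fat and liver, from 37.5 ± 7.59 to 3.23 ± 1.04 CPM (-3.54 ± 0.21 SE, edgeR adjusted p 6.1e-08). Abhd6, another monoglyceride lipase, fell from 6.29 ± 0.603 to 2.77 ± 0.346 CPM (-1.18, adjusted p 1.6e-06), without overlap. Pnpla3, a relative of Pnpla2, rose from 6.11 ± 2.84 to 12.99 ± 5.88 CPM with overlap (1.09, adjusted p 0.0150). The remaining calls, named after their values were seen, were Lipa, the lysosomal acid lipase, which rose (0.87, adjusted p 9.8e-04), and Aqp7, a glycerol channel, which fell (-0.55, adjusted p 4.7e-04).

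Glycerolipid synthesis had 13 tested genes, of which 7 fell and 3 rose, with a median of -0.14. The lipins, which make diglyceride from phosphatidic acid, differed among themselves. Lpin1, the muscle form, fell from 808 ± 110.2 to 575 ± 64.9 CPM (-0.49 ± 0.10 SE, edgeR adjusted p 0.0013), while Lpin3 rose from 6.79 ± 0.919 to 11.1 ± 0.574 CPM without overlap (0.71 ± 0.08 SE, adjusted p 2.2e-05). Lpin2, named after its value was seen, also rose, from 6.34 ± 0.838 to 8.50 ± 1.56 CPM (0.42 ± 0.12 SE, edgeR adjusted p 0.0126), with 5 mdx/mTR libraries above all WT libraries; without both WT replicate 2 and mdx/mTR replicate 5 it was not called (adjusted p 0.0512). Agpat4, a lysophosphatidic acid acyltransferase, rose from 2.27 ± 0.344 to 3.58 ± 0.588 CPM (0.66, adjusted p 0.0013). With library totals alone only 2 genes of this list were called lower.

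Fatty acid activation had 5 tested genes, of which 2 fell and 1 rose, with a median of -0.10. Acsl1, the main muscle acyl-CoA synthetase, fell from 563 ± 40.6 to 312 ± 47.9 CPM without overlap (-0.85 ± 0.09 SE, edgeR adjusted p 1.3e-05). Acsl6 fell from 82.8 ± 5.19 to 68.7 ± 4.28 CPM (-0.27, adjusted p 0.0011), and Acsl5 rose from 9.14 ± 1.18 to 12.05 ± 1.93 CPM (0.40, adjusted p 0.0083).

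Droplet coat, budding and growth had 7 tested genes, of which 3 rose and 1 fell, with a median of -0.12. Fitm1, the muscle protein that helps droplets form, rose from 175 ± 12.2 to 207 ± 19.3 CPM (0.24 ± 0.07 SE, edgeR adjusted p 0.0094), and its relative Fitm2, named after its value was seen, fell from 98.8 ± 4.48 to 84.6 ± 11.4 CPM (-0.22, adjusted p 0.0344). The fall of Fitm2 was lost with library totals alone and with upper quartile scaling, and in 6 of the 12 fits that left out 1 library (WT replicates 2, 3, 4 and 5 and mdx/mTR replicates 3 and 6; edgeR adjusted p at most 0.0716 in these). Cidea, a droplet fusion protein of brown fat, rose from 0.751 ± 0.246 to 1.70 ± 0.462 CPM (1.18, adjusted p 0.0012), while Ucp1, the defining brown fat gene, stayed at or below 0.0261 CPM, under the level that 3 counts give. Hilpda, an inhibitor of Pnpla2 induced by low oxygen, rose from 2.57 ± 0.413 to 3.19 ± 0.237 CPM (0.31, adjusted p 0.0374). This rise was lost with no filter beyond a count above 0 (edgeR adjusted p 0.0567) and in 6 of the 12 fits that left out 1 library (WT replicates 1, 3 and 6 and mdx/mTR replicates 2, 3 and 4; edgeR adjusted p at most 0.0847 in these). The groups overlapped for all 7 tested genes of this list.

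**Figure D5:**
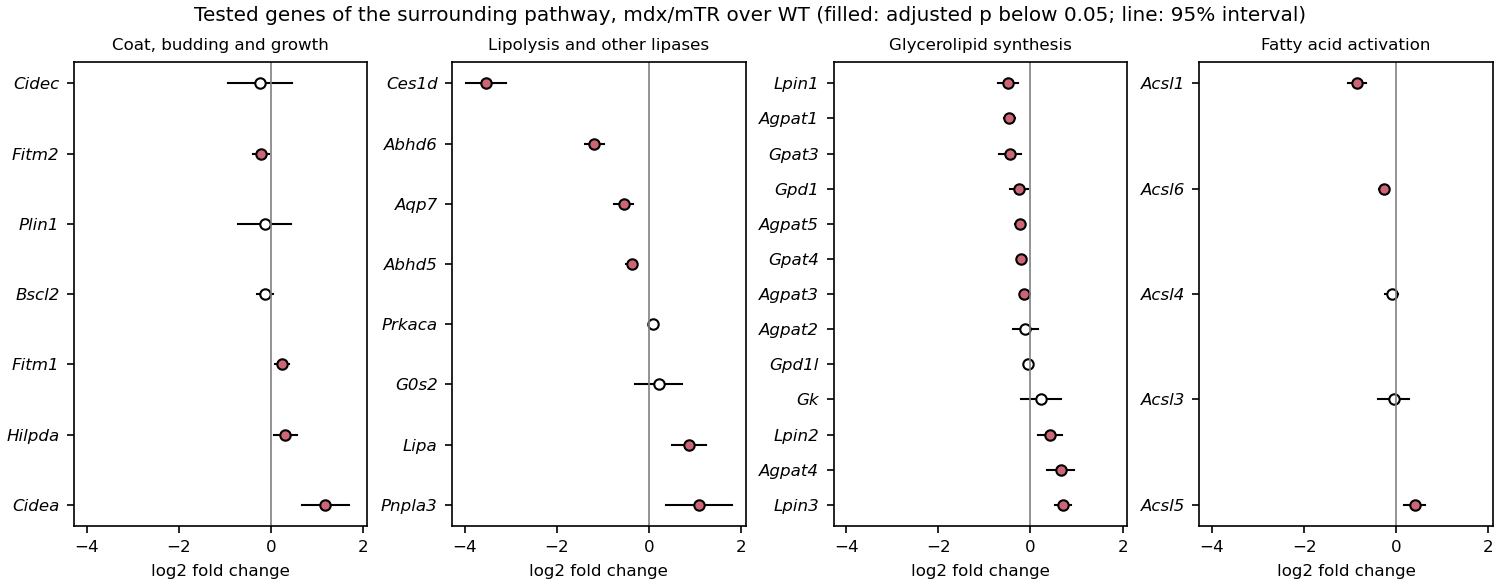
Log2 fold change and 95% interval (horizontal axis, positive where mdx/mTR was higher) for the tested genes of the 4 surrounding lists, filled where the adjusted p is below 0.05. Ces1d (-3.54) lies farthest from 0, and every list holds genes on both sides of 0.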

How the data were processed

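Messenger RNA of the tibialis anterior was sequenced in 12 libraries, 6 per strain. The submitters' processing notes name FastQC, STAR, DESeq2 and the build mm10; the counting tool and strand handling are not given in the sources used here. The authors deposited whole-number counts per gene symbol, used as deposited. Per the file headers, the authors' deposited comparison holds a mean normalized signal, log2 fold changes with standard errors, a test score, and raw and adjusted p-values.

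Counts were tested with edgeR 4.0.16 in R 4.3.3 (filterByExpr, TMM, glmQLFit, glmQLFTest, group only, Benjamini-Hochberg over 13937 genes, threshold 0.05). The SE is the log2 fold change divided by the square root of F. Ratios add 0.5 to each count and use exact permutation over the libraries. The procedure was tested on simulated data. Alternatives were other filters, scalings, DESeq2 1.42.0, limma 3.58.1 (voom), a replicate block and each library left out. A fit without both WT replicate 2 and mdx/mTR replicate 5 was added after seeing the data. Of the per-sample columns, 0 were unmatched. Members and lists were chosen with earlier results of these data known. A gene of the lipolysis list is not reported here. Named were all members, Dmd, Abhd5, G0s2, the 3 largest called changes of each list, and the 3 genes most like each of the 3 members with the smallest p. Positions, exon overlap and shared 50-base stretches came from GENCODE M21. Members had 349 to 34528 counts in a library. A count of 0 allows up to 3 counts, 0.0460 to 0.0837 CPM, for counting error only. Replicate pairs differed by more than sampling noise (chi-square per degree of freedom at least 9.10). Python 3.11.15, pandas 2.3.3, scipy 1.17.1 and matplotlib 3.10.9 were used.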

Additional observations from a re-analysis of the deposited data

Results flagged for a closer look

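Within each group of 6 libraries, the gap of the highest or lowest value to its neighbour was set against the range of the group by Dixon's test at the 95% level. Among 58 sets of values (members, named pathway genes, ratios and some of the marker sums), 4 passed, and chance gives about 2.9. Among the members, this was Pnpla2 in WT replicate 4, which held 283 CPM where the remaining WT libraries held 322 to 345 CPM (gap 0.628 of the range). Among the pathway genes, WT replicate 2 was highest for G0s2 (13.1 CPM against 5.76 to 7.70, share 0.737) and for Cidea (1.23 CPM against 0.574 to 0.778, share 0.689), and WT replicate 1 was lowest for Agpat4 (1.58 CPM against 2.29 to 2.52, share 0.756).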

How the results depend on the processing

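Dgat2, Plin5, Plin3, Gpam and Dgat1 kept their direction and their call in all 21 alternatives run for each, and the ratios of Dgat2 to Dgat1 and of Plin5 to Plin2 kept theirs in all 14. The number of members that fell was 5 to 6 without each library in turn, and the number that rose was 1 throughout these. With library totals alone 2 members rose (Dgat1 and Plin2) and 4 fell, as Lipe and Mgll were not called. Plin4 was positive with library totals alone (0.107) and with upper quartile scaling (0.00472), and ranged from -0.119 to 0.0360 without each library in turn. Pnpla2 was 0.0716 with library totals alone and 0.00473 without both WT replicate 2 and mdx/mTR replicate 5, a fit chosen after seeing the data in which Mgll was not called either (-0.28, adjusted p 0.0828). The difference of the Lipe to Pnpla2 log2 ratio ranged from -0.263 to -0.170 without each library in turn, and the cause of its passing in 3 of these was not tested.

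The groups share replicate numbers, but deviations of same-numbered libraries correlated between -0.139 and 0.334, with 2 of 6 above 0.1, which does not pair the libraries. Of the 6 WT libraries, 2 correlated best with their own number. With a replicate block 6420 genes were called in place of 6736, the log2 fold changes were -1.81 for Dgat2 and -1.69 for Plin5, the log2 ratio of Lipe to Pnpla2 differed by -0.22 (adjusted p 0.0938, exact sign permutation), and no member changed its call. Depth limits none of the member values, whose lowest count was 349.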

Other observations

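Some genes of the surrounding lists were too low to test: 1 of 8 in the coat list (Cideb), 2 of 10 in the lipolysis list (Adrb1 and Adrb3) and 3 of 16 in the synthesis list (Gpat2, Mogat1 and Mogat2). The means were 0.0905 CPM (WT) and 0.0808 CPM (mdx/mTR) for Adrb1 and 0.201 and 0.218 CPM for Adrb3, so these beta-adrenergic receptors, which drive lipolysis in fat, were low in both groups. Mogat2, a monoglyceride acyltransferase, averaged 0.292 ± 0.0763 CPM over the 6 WT libraries and 0.106 ± 0.0490 CPM over the 6 mdx/mTR libraries (SD). Its counts ran from only 1 to 15 in a library. The groups were narrowly apart, with 0.183 CPM in the lowest WT library and 0.174 CPM in the highest mdx/mTR library. By library totals alone they overlapped, as mdx/mTR replicate 1 (10 of 58082302 counts) lay above WT replicate 5 (7 of 40981012 counts).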
